A study of Mus musculus with 4 samples.

Results

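The genes of the neutrophil primary granule examined here are 9 genes fixed by their symbols, namely Mpo, Elane, Prtn3, Ctsg, Ms4a3, Prss57, Ctsc, Fcnb and Serpinb1a, among 53465 genes in the count table. All 9 were found under their symbols, and all 9 had enough reads to be among the 14682 genes tested. RNA-seq was performed on myeloid-derived suppressor cells (MDSCs), immature myeloid cells that expand in tumor-bearing hosts, which had been isolated with magnetic beads and antibody against Gr-1 (Ly-6G/Ly-6C) from the spleens of BALB/c mice carrying subcutaneous 4T1 mammary tumors. The cells were kept in vitro for 6 h in control medium (control group, replicates 1 and 2) or in medium with 5 μg/mL epigallocatechin-3-gallate (EGCG), the main polyphenol of green tea (EGCG treatment group, replicates 1 and 2). The mice were males of 6 weeks at injection per the methods, and both groups share the tumor, the strain, the organ and the sort. The labels place the sacrifice on day 21 after injection, whereas the methods give 2 weeks. Whether replicates were taken from separate mice or only from separate wells is stated in neither source, so the p values measure only the spread between these libraries, which may be technical.

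Primary (azurophil) granules are the first granules to form in a developing neutrophil, at the promyelocyte stage, and they store a peroxidase and a family of serine proteases made for killing and digesting microbes. Transcription of the peroxidase and the proteases is largely switched off once the cell passes to the stage at which secondary granules are made, while the proteins persist in mature neutrophils. Other genes of the group, such as Ctsc, are also used by other leukocytes. The serine proteases are synthesized as inactive zymogens and are activated in the granule by Ctsc (dipeptidyl peptidase 1), which removes a dipeptide from the N-terminus, and in the cytosol they are held in check by inhibitors such as Serpinb1a.

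The total count was between 17767318 and 18390385 reads per library, and the replicates of a group differed by more than sampling noise over all genes (mean chi-square per gene of 6.85 between the controls against 6.64 for the EGCG pair, where sampling alone gives about 1). Against EGCG replicates 1 and 2, this value was 16 and 12.4 for control replicate 1. For control replicate 2 it was 7.57 and 6.7, so this library was about as far from the EGCG libraries as from the other control. The 8 defining markers of the sorted cells (Itgam, Ly6g, Ly6c1, Ly6c2, S100a8, S100a9, Csf3r and Cxcr2) were present in all libraries. Their summed level was 43359 and 53379 CPM (counts per 1000000 reads, with library sizes scaled by the TMM factors of edgeR) in control replicates 1 and 2 and 61456 and 53226 CPM in EGCG replicates 1 and 2, so that control replicate 1 was the lowest and EGCG replicate 1 the highest. S100a8 and S100a9 made up most of it, and the other 6 markers summed to 6443, 6924, 6950 and 6742 CPM, again lowest in control replicate 1 and highest in EGCG replicate 1. Markers of other splenic cells were also present. The summed level of 10 macrophage markers was 726 to 742 CPM in the control group and 572 to 655 CPM in the EGCG treatment group, and that of 8 eosinophil markers was 1189 to 1392 CPM and 981 to 1179 CPM (8 of 8 with a negative log2 fold change, 0 called and 3 with an unadjusted p under 0.05 by edgeR, and 3 called without control replicate 2 or without EGCG replicate 1). Markers of B and plasma cells were at 1944 to 2062 CPM and 2203 to 2226 CPM (7 of 8 with a positive log2 fold change). Those of endothelial cells were at 136 to 145 CPM and 107 to 115 CPM. All 7 tested endothelial markers were negative, with 0 called and 6 with an unadjusted p under 0.05 by edgeR, and 1 called with library size only. The median of these 7 log2 fold changes was -0.56, from -0.75 to -0.43 with a library left out. The part of these other cell types in the levels of the 9 genes was not tested.

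The 9 genes lie on 7 chromosomes (GRCm38, GENCODE M21), and 3 of the serine protease genes share chromosome 10. Prtn3 (ENSMUSG00000057729, 79874476 to 79883174, plus strand) and Elane (ENSMUSG00000020125, 79886247 to 79888215, plus strand) are separated by 3072 bases, and Prss57 (ENSMUSG00000020323, 79781474 to 79790961, minus strand) lies 83514 bases before Prtn3. Mpo (ENSMUSG00000009350) is on chromosome 11 from 87793581 to 87804413, Ctsg (ENSMUSG00000040314) on chromosome 14 from 56099881 to 56102574, and Ms4a3 (ENSMUSG00000024681) on chromosome 19 from 11629496 to 11640851. Ctsc (ENSMUSG00000030560) is on chromosome 7 from 88278085 to 88310888, Fcnb (ENSMUSG00000026835) on chromosome 2 from 28076378 to 28084885, and Serpinb1a (ENSMUSG00000044734) on chromosome 13 from 32842092 to 32851185. All are protein-coding.

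The RefSeq promoter windows (GRCm38.p6, 250 bases before to 50 after the annotated start site) of 7 of these genes were searched on both strands for letters that fit binding sites of the transcription factors of early granulocytes. Prss57 and Serpinb1a had no entry. RefSeq and GENCODE differ in the annotated start of some genes, such as Prtn3, and the windows follow RefSeq. The sequence GAGGAA, the core of many PU.1 sites, was found in 6 of 7 windows, against 28.3% of 32817 promoter windows of the same length. TTNNGNAA, which fits C/EBP sites, was found in 2 of 7 (40.7% of all windows), TAACNG, which fits MYB sites, in 2 of 7 (23.3%), and TGTGGT, which fits RUNX sites, in 1 of 7 (16.8%). A match of letters is a description of the window, and no binding was measured here. Of these windows, those of the neighbors Elane (chr10:79886062-79886361, plus strand) and Prtn3 (chr10:79879417-79879716, plus strand) are shown for their like-placed GAGGAA, that of Mpo (chr11:87793534-87793833, plus strand) and that of Ms4a3 (chr19:11640802-11641101, minus strand) because these genes had the most negative and the most positive fold change, and that of Fcnb (chr2:28084829-28085128, minus strand) as the window with no GAGGAA. They are written 5′ to 3′ on the strand of the gene, and capitals mark every match to the 4 searched motifs on either strand:
Elane: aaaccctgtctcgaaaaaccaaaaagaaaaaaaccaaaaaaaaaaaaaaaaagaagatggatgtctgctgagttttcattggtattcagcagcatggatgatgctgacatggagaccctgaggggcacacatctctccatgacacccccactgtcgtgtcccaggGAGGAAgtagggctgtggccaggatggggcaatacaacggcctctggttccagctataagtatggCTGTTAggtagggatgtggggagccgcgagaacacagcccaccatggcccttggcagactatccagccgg
Prtn3: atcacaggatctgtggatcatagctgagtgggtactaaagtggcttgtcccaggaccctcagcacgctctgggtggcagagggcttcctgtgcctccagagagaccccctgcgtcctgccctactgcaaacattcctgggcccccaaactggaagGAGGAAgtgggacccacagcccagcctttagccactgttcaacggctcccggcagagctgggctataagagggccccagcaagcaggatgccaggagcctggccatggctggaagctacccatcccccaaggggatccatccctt
Mpo: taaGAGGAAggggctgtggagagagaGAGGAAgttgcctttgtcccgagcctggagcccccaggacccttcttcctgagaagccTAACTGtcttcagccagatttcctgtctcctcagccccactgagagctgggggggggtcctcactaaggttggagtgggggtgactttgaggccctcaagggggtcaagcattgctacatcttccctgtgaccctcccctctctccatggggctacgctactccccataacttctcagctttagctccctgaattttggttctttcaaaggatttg
Ms4a3: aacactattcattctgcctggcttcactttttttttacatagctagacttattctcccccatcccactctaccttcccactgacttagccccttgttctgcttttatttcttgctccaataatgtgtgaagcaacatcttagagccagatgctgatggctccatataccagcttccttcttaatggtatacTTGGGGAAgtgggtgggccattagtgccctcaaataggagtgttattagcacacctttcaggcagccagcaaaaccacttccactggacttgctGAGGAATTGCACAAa
Fcnb: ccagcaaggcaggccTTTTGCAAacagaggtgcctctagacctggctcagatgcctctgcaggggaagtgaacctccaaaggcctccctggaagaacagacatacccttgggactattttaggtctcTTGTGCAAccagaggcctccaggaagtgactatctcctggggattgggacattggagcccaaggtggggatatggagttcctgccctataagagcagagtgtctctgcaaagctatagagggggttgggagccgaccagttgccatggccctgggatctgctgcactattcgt

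Counted from the start site, with negative positions before it, GAGGAA began at position -85 in Elane and at -95 in Prtn3, in both cases on the strand of the gene. In Elane a TAACNG match on the opposite strand began at -20. In Mpo GAGGAA occurred at 2 places, beginning at -247 and -224, followed by a TAACNG match at -166. In Ms4a3 a GAGGAA at position 36 was directly followed by a TTNNGNAA match on the opposite strand, from 42 to 49, and a further TTNNGNAA match began at -59. Fcnb held 2 TTNNGNAA matches, beginning at -235 and -123. In the Ctsg window, which is not shown, GAGGAA began at -216 and the only TGTGGT match of the 7 windows, on the opposite strand, at -79. In that of Ctsc there were 2 GAGGAA matches on the opposite strand.

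Between the groups, the levels of the primary granule genes differed by -8.51% (Mpo) to 15.8% (Ms4a3), and no difference passed the test. With edgeR's quasi-likelihood test, 0 of the 9 genes had an adjusted p under 0.05 (Benjamini-Hochberg, over the 14682 tested genes, of which 0.150% were called), and 0 had an unadjusted p under 0.05, against 12.2% of all tested genes. With library size only, 1 of the 9 had an unadjusted p under 0.05 by edgeR, beside 1878 of the 14682 tested genes. DESeq2 and limma-voom also called 0 of the 9. The log2 fold changes (EGCG against control) ran from -0.13 for Mpo to 0.21 for Ms4a3, with 7 above and 2 below 0 and a median of 0.038, beside a median of 0.0031 and 50.6% above 0 over all tested genes. The median of the 9 was 0.013, with 5 above 0, when EGCG replicate 1 was left out, and 0.10 when EGCG replicate 2 was. With a correction for gene length (a loess fit of log CPM on log length in each library), 5 of the 9 were above 0. The median of the 9 was then 0.012, or 0.0097 with the replicate number as a block, below the median of 0.031 over all tested genes. The 95% intervals of all 9 genes included no change, and together they reached from 0.803-fold (Ctsc) to 1.37-fold (Ms4a3). For 3 of the 9 genes (Mpo, Prss57 and Fcnb) the EGCG libraries lay on 1 side of both controls, against 42.7% of all tested genes. In bulk RNA, a difference in the number of cells with these transcripts and a difference in the transcript per cell cannot be told apart.

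Together the 9 genes took 0.113% and 0.114% of the scaled counts in control replicates 1 and 2, compared with 0.118% and 0.111% in EGCG replicates 1 and 2. The sum was 1133 ± 5.87 CPM (SD, n = 2) without EGCG and 1147 ± 49.9 CPM (SD, n = 2) with it, and both the highest and the lowest library belonged to the EGCG treatment group. EGCG replicate 1 held the highest level of 6 of the 9 genes, and control replicate 1 the lowest of 4 (Ms4a3, Prss57, Serpinb1a and Fcnb). For Ms4a3, Prss57, Serpinb1a and Fcnb, the lowest and the highest library were those of the summed markers of the sorted cells, and their part in the levels of these genes was not tested.

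**Figure D1:**
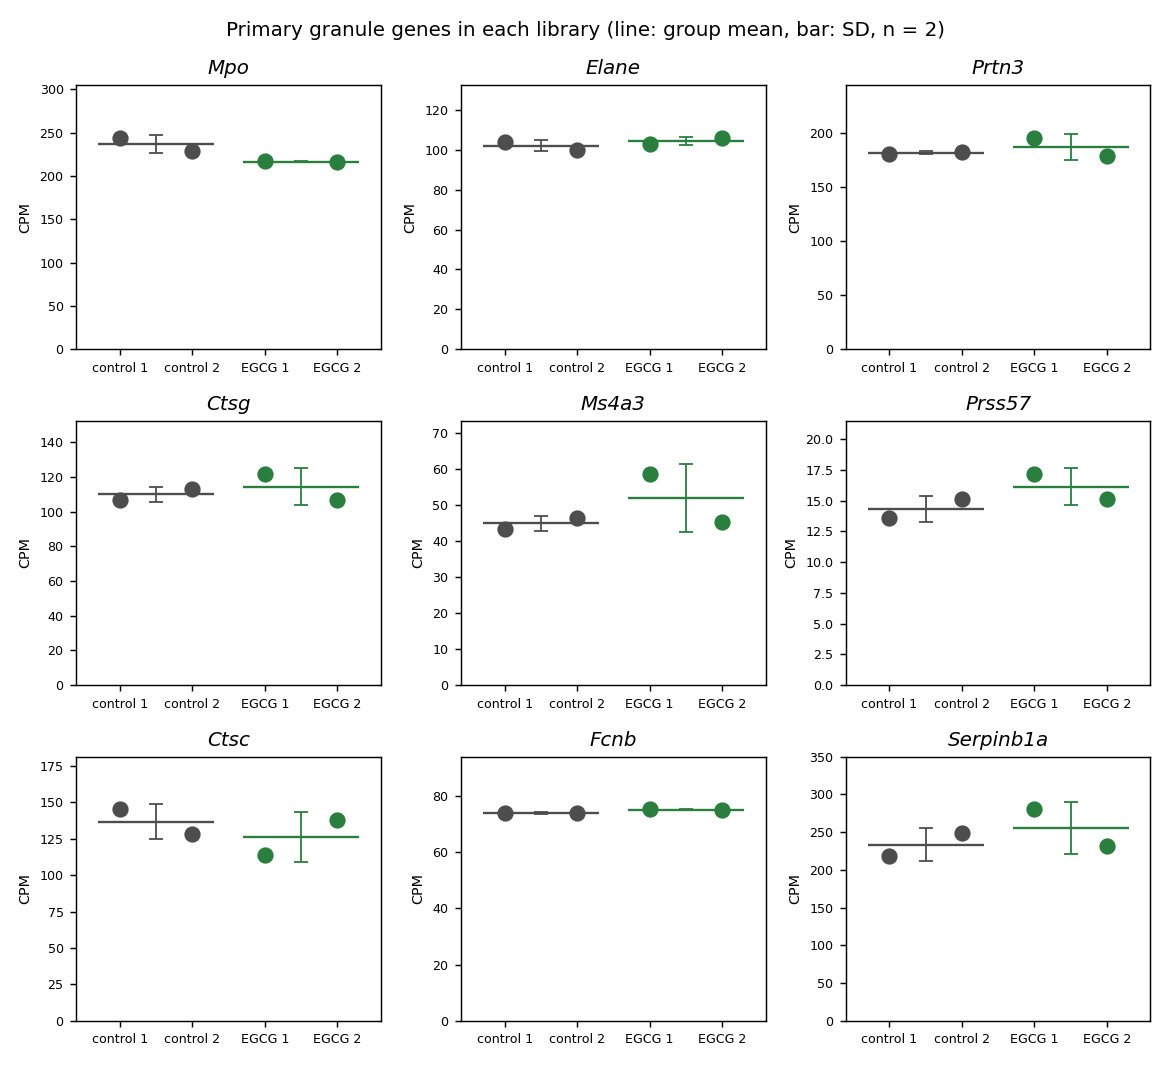
Level of each primary granule gene in CPM (vertical axis, from 0) in the 4 libraries (horizontal axis), with the mean of each group as a line and its SD as a bar (n = 2). The 2 EGCG libraries lay on the same side of both control libraries in Mpo, Prss57 and Fcnb, and the EGCG replicates of Ms4a3, at 58.7 and 45.2 CPM, had the widest gap of the 9 genes in percent (29.9%).

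Mpo encodes myeloperoxidase, the heme enzyme that turns hydrogen peroxide and chloride into hypochlorous acid. It was at 244 and 229 CPM in control replicates 1 and 2 and at 217 and 216 CPM in EGCG replicates 1 and 2. Both EGCG libraries were below both control libraries, and they were nearly equal to each other. This gave a log2 fold change of -0.13 (standard error 0.074, adjusted p of 0.522 in the edgeR fit), and with a library left out it stayed between -0.17 and -0.078. Mpo had the most negative estimate of the 9 genes and kept this sign in every one of the 12 alternative analyses, without passing the threshold in any (adjusted p from 0.384 to 0.767). Beside it, the summed level of 30 cell cycle genes was 1357 and 1363 CPM in the control group and 1275 and 1249 CPM in the EGCG treatment group. Without Mki67 the sum of the remaining 29 genes was 1064, 1084, 1067 and 1048 CPM in the same order, so the lower sum lay mostly in Mki67. An antisense gene, Gm11505, covers 15.0% of the exonic bases of Mpo and had 0 counts in all libraries. Non-stranded counts cannot tell the reads of the shared stretch apart, so this 0 does not show which gene they came from.

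Elane encodes neutrophil elastase, the main elastin-degrading protease of the granule. Its level was 104 and 100 CPM in the control group and 103 and 106 CPM in the EGCG treatment group, and the groups overlapped. The log2 fold change of Elane was 0.037 (standard error 0.075, 95% interval from 0.918-fold to 1.15-fold, adjusted p of 0.889). The gaps between replicates, 3.88% (control) and 2.92% (EGCG), were about the size of the counting error of 2.29% to 2.36% for a single library.

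Prtn3 encodes proteinase 3, a close relative of elastase. It was at 181 and 183 CPM in the control libraries and at 196 and 179 CPM in the EGCG libraries. The EGCG libraries were thus the highest and the lowest of all, and the log2 fold change was 0.038 (standard error 0.076, adjusted p of 0.888). Without EGCG replicate 1 it became -0.027. Plppr3, on the other strand, shares 9.18% of the exonic bases of Prtn3 and had 112 to 139 counts per library, beside 3189 to 3547 for Prtn3. The ratio of Prtn3 to Elane counts within a library was 1.74 and 1.83 in the controls, compared with 1.90 and 1.68 after EGCG, so the groups overlapped.

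Ctsg encodes cathepsin G, the chymotrypsin-like protease of the granule. Its level was 107 and 113 CPM in the control group, and 122 and 107 CPM in the EGCG treatment group. As for Prtn3, EGCG replicate 1 was the highest library, and EGCG replicate 2 was level with the lower control. For Ctsg the log2 fold change was 0.056 (standard error 0.083, adjusted p of 0.842), and -0.040 without EGCG replicate 1.

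Prss57, also known as neutrophil serine protease 4, cleaves after arginine and was the least abundant of the group. It was at 13.6 and 15.1 CPM in the control libraries and at 17.2 and 15.1 CPM in the EGCG libraries, from 248 to 311 counts. EGCG replicate 2 lay just above control replicate 2, so that the groups met without overlapping. Its log2 fold change was 0.17 (standard error 0.13, adjusted p of 0.625), with a 95% interval from 0.935-fold to 1.36-fold. The counting error was 5.67% to 6.35% per library. Fstl3 on the opposite strand overlaps 40.7% of the exonic bases of Prss57 and had 42 and 38 counts in the controls, compared with 49 and 64 after EGCG. The deposited table is named as non-stranded, so reads of the shared stretch cannot be told apart.

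Of the proteins that act on these proteases, Ctsc, the activator, and Serpinb1a, the inhibitor, had the widest gaps between replicates in units of counting error. Ctsc was at 145 and 128 CPM in control replicates 1 and 2 and at 114 and 138 CPM in EGCG replicates 1 and 2. EGCG replicate 1 was the lowest library and control replicate 1 the highest, while the remaining libraries had the order of their groups reversed. For Ctsc the log2 fold change was -0.11 (standard error 0.10, adjusted p of 0.688), and it ranged from -0.26 to 0.024 with a library left out, the latter without EGCG replicate 1. Ctsc is made in many leukocytes, monocytes and macrophages included. The summed macrophage markers had their highest level, 742 CPM, in control replicate 1 and their lowest, 572 CPM, in EGCG replicate 1, as Ctsc did, and so did 10 monocyte markers, at 1640 and 1412 CPM in the control libraries and 1266 and 1324 CPM in the EGCG libraries (1149, 1109, 1048 and 1061 CPM without Fn1, fibronectin). Between control replicate 2 and EGCG replicate 2 the order differed. Ctsc was higher in the latter (128 and 138 CPM), and both marker sums were lower there (macrophage markers 726 and 655 CPM). Of the monocyte markers, 8 of 10 had a negative log2 fold change, and edgeR called 0 (3 with an unadjusted p under 0.05), but 1, Fn1, with library size only or without EGCG replicate 1, and 2 without control replicate 2 or without EGCG replicate 2. All 10 macrophage markers had a negative log2 fold change (median -0.29, and -0.10 without EGCG replicate 1 or -0.17 without control replicate 1). Of these, 0 were called and 5 had an unadjusted p under 0.05 by edgeR, while 1, Cd5l, was called by DESeq2 and by edgeR with library size only, and the part of either cell type in the level of Ctsc was not tested.

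Serpinb1a encodes the mouse counterpart of the leukocyte elastase inhibitor, which blocks elastase, proteinase 3 and cathepsin G. Its level was 218 and 249 CPM in the control group and 280 and 231 CPM in the EGCG treatment group. EGCG replicate 2 lay between the control libraries. The fold change of Serpinb1a was 0.13 on the log2 scale (standard error 0.10, adjusted p of 0.633), and it was -0.014 without EGCG replicate 1 and 0.26 without EGCG replicate 2. The replicates differed by 14.0% (control) and 21.3% (EGCG), which is 6.02 and 9.22 times the counting error of the difference. Parts of its sequence (10.2% of its 31-base words) occur in transcripts of other genes, mostly Serpinb1c, which had 2 to 6 counts per library. The ratio of Serpinb1a CPM to the summed CPM of the serine proteases Elane, Prtn3, Ctsg and Prss57 was 0.538 and 0.605 in the controls, compared with 0.639 and 0.567 after EGCG, and the groups overlapped.

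Ms4a3 encodes a membrane protein of granulocyte-monocyte progenitors and promyelocytes that basophils also express. It was at 43.3 and 46.4 CPM in the control libraries and at 58.7 and 45.2 CPM in the EGCG libraries. EGCG replicate 1 stood above the other libraries, and EGCG replicate 2 lay between the control libraries. Ms4a3 had a log2 fold change of 0.21 (standard error 0.11, adjusted p of 0.480, unadjusted p of 0.0794), the most positive of the group. It was 0.013 without EGCG replicate 1 and 0.39 without EGCG replicate 2, so that its size rested on EGCG replicate 1. The summed basophil and mast cell markers were at 315 and 341 CPM in the control libraries and 330 and 322 CPM in the EGCG libraries. Of the 8, 3 had a positive and 5 a negative log2 fold change (median -0.046). Their part in the level of Ms4a3 was not tested.

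Fcnb encodes ficolin B, a lectin that binds sugars on microbes and starts the lectin pathway of complement. It was the steadiest gene of the group, at 73.8 and 74.1 CPM in the control group and 75.2 and 74.9 CPM in the EGCG treatment group. Although the groups did not overlap, the log2 fold change was 0.021 (standard error 0.077, a change of 1.46%, adjusted p of 0.946) and turned to -0.014 with library size only, and the whole spread was below the counting error of 2.71% to 2.75% per library. The 95% interval for Fcnb ran from 0.905-fold to 1.14-fold.

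**Figure D2:**
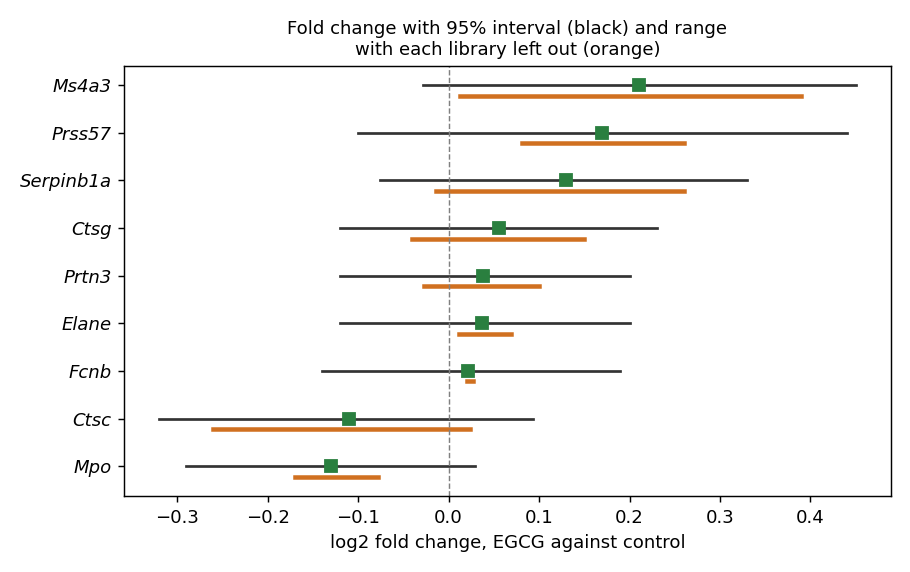
The log2 fold change (EGCG against control) of each primary granule gene (squares), with its 95% interval from edgeR in black and the range with each library left out in orange. All 9 intervals cross 0, and the range for Ms4a3 runs from 0.013 to 0.39.

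Between genes, levels were compared per length of the merged exons (CPM per kilobase). This length joins the exons of all annotated transcripts, 1 for Elane (984 bases) but 6 each for Prtn3 (1732 bases) and Mpo (3424 bases). It also holds stretches shared with genes on the other strand, 40.7% of the exonic bases for Prss57. The order of the genes could therefore depend on the length used, and other lengths were not tried. Over the 4 libraries, Ctsg (mean of 108), Prtn3 (107), Serpinb1a (106) and Elane (105) formed a top group whose neighboring ranges overlapped, with single libraries between 94.7 and 121 CPM per kilobase. Mpo followed at 66.2 and Fcnb at 55.6, and each of their ranges was separate from those of its neighbors. Ms4a3 (25.7) and Ctsc (22.6) overlapped, and Prss57 was the lowest at 5.36. The summed level of the 9 genes was 586 to 633 CPM per kilobase, against 8475 to 10270 for 22 other primary granule genes (Lyz2, lysozyme, the most abundant), 13015 to 14450 for 20 secondary granule genes and 77206 to 110231 for 24 genes of tertiary granules and mature neutrophils. These sums run over different numbers of genes.

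Around its own mean over the 4 libraries, the genes fell into 3 kinds of profile. Ms4a3, Prss57, Serpinb1a, Ctsg and Prtn3 were highest in EGCG replicate 1 and, on the log2 scale, 0.084 to 0.29 above their mean there, and control replicate 1 was the lowest library for Ms4a3, Prss57 and Serpinb1a. Ctsc and Mpo were highest in control replicate 1, by 0.15 and 0.11. Elane and Fcnb stayed within 0.046 of their mean in all libraries. The log2 CPM averaged over the 9 genes differed from its mean by -0.034 and -0.010 in the controls, compared with 0.069 and -0.025 after EGCG. Among 9265 other genes with at least 100 counts in every library, the nearest to this averaged profile were Celf2, Khk, Dusp22, Rnf185 and Api5, with root-mean-square distances of 0.0028 to 0.0074 on the log2 scale over the 4 libraries (median over all these genes 0.096). With 4 points and so flat a profile, this is a description of shape, and Celf2, for example, had a log2 fold change of 0.046.

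**Figure D3:**
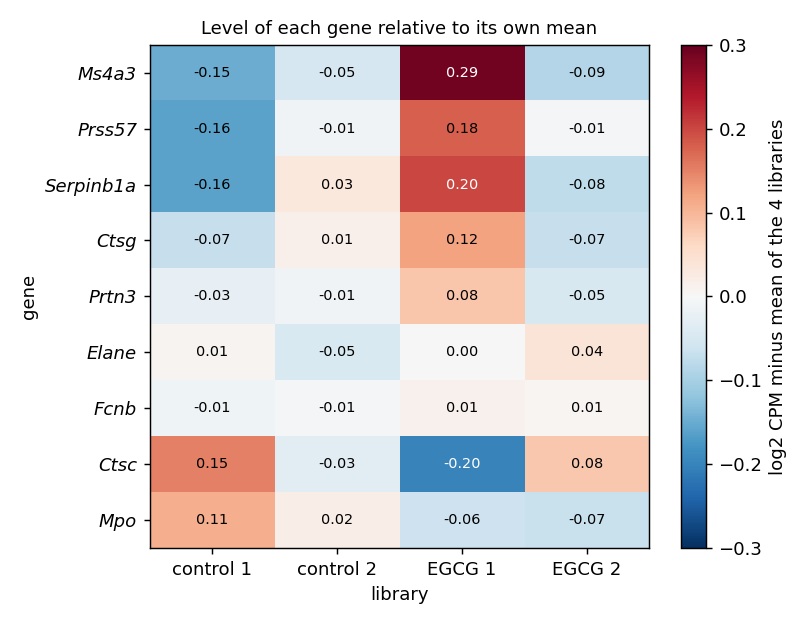
Level of each primary granule gene (rows) in each library (columns), as log2 CPM minus the gene's mean over the 4 libraries, with red above and blue below the mean. EGCG replicate 1 holds the most extreme values, 0.29 for Ms4a3 and -0.20 for Ctsc.

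The other genes of the granule program were taken from lists of symbols. Of 22 further genes for cargo and packaging of primary granules, 21 were tested, and 0 of them were called by edgeR, DESeq2 or limma-voom (3 with an unadjusted p under 0.05 by edgeR; median log2 fold change of 0.045, and -0.018 without EGCG replicate 2). Ctsd, a lysosomal aspartic protease, had the smallest p, at 1482 and 1547 CPM in the control group and 1765 and 1825 CPM in the EGCG treatment group (log2 fold change of 0.25, standard error 0.079, adjusted p of 0.230), and Hexa, a subunit of beta-hexosaminidase, came next (0.18, standard error 0.073, adjusted p of 0.339). For both genes the EGCG libraries lay above the controls. Of 15 other granule serine protease genes, which belong to mast cells, basophils or cytotoxic lymphocytes for the most part, 8 were tested and 0 called by the same tools (2 with an unadjusted p under 0.05), and those with the smallest p, Cma1 and Tpsab1, had only 15 to 40 counts per library, with log2 fold changes of 0.85 (standard error 0.35, adjusted p of 0.361) and -0.80 (standard error 0.36, adjusted p of 0.393).

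Among 25 inhibitors of granule proteases and cathepsins, 20 were tested, 0 were called by edgeR or limma-voom and 7 had an unadjusted p under 0.05 by edgeR. Wfdc17, a small secreted protein with a domain of the protease inhibitor Slpi, was at 229 and 302 CPM in the control group and at 367 and 370 CPM in the EGCG treatment group, both above the controls. Its log2 fold change was 0.47 (standard error 0.10, adjusted p of 0.0886), and it was called by DESeq2 (adjusted p of 0.0123) and by edgeR with library size only (0.0177). BC100530, a cytosolic cystatin of the stefin A cluster, had a log2 fold change of 0.41 (standard error 0.11, adjusted p of 0.171). The stefin A genes are close copies whose reads the counting could have divided, so the value of BC100530 is uncertain. With a library left out, edgeR called 0 (control replicate 1), 6 (control replicate 2), 1 (EGCG replicate 1) and 5 (EGCG replicate 2) of the 20 inhibitors, in runs that called 77, 354, 118 and 252 genes in all.

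All 20 regulators of granulocyte-monocyte progenitors were tested, 0 were called by edgeR or limma-voom, and 5 had an unadjusted p under 0.05 by edgeR. Csf2rb, the shared receptor chain for GM-CSF, IL-3 and IL-5, was at 812 and 788 CPM in the control group and 624 and 660 CPM in the EGCG treatment group (log2 fold change of -0.32, standard error 0.076, adjusted p of 0.121; 0.0177 with DESeq2 and 0.0271 with library size only). Cebpd, a C/EBP factor of later granulocyte stages, was at 264 and 262 CPM and at 338 and 308 CPM (0.30, standard error 0.077, adjusted p of 0.138). Of 21 other transcripts of progenitors and promyelocytes, 0 were called by edgeR, DESeq2 or limma-voom (2 with an unadjusted p under 0.05 by edgeR; median of 0.0060, and 0.082 without EGCG replicate 2 or -0.014 without control replicate 1), with the smallest p for Ap3s1, an adaptor subunit of granule sorting (0.26, standard error 0.090, adjusted p of 0.279), and Rab44 (-0.21, standard error 0.089, adjusted p of 0.368).

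Of 20 secondary granule genes, 0 were called by edgeR, DESeq2 or limma-voom (3 with an unadjusted p under 0.05 by edgeR), and their median log2 fold change was 0.0097 (0.069 when control replicate 2 was left out, -0.033 when control replicate 1 was), with single genes from -0.25 to 0.18. Abca13, a lipid transporter, had -0.25 (standard error 0.077, adjusted p of 0.221) and Ltb4r1, the leukotriene B4 receptor, 0.18 (standard error 0.077, adjusted p of 0.378). Of 24 genes of tertiary granules and mature neutrophils, 0 were called by the same tools (4 with an unadjusted p under 0.05 by edgeR) and 19 had a positive log2 fold change, with a median of 0.10 (0.034 when control replicate 1 was left out, 0.19 when control replicate 2 was). G0s2, an inhibitor of triglyceride lipase, had 0.27 (standard error 0.077, adjusted p of 0.188) and S100a8 0.38 (standard error 0.12, adjusted p of 0.228). Of 30 cell cycle genes, 1 was called lower in the EGCG treatment group and 0 were called higher, with 19 negative and 11 positive log2 fold changes. This was Mki67, the proliferation marker Ki-67, which fell from 293 and 279 CPM to 209 and 201 CPM (log2 fold change of -0.48, standard error 0.074, adjusted p of 0.0245 in the edgeR fit). It was not called without a filter on low counts (log2 fold change of -0.48, adjusted p of 0.525 over 27490 genes), with the length correction (-0.36, adjusted p of 0.0864) or with that correction and the replicate number as a block (-0.37, adjusted p of 0.0665), and the median of the 30 genes was -0.014, from -0.039 to 0.013 with a library left out. Cenpe, a mitotic motor protein, came next (-0.35, standard error 0.10, adjusted p of 0.219).

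**Figure D4:**
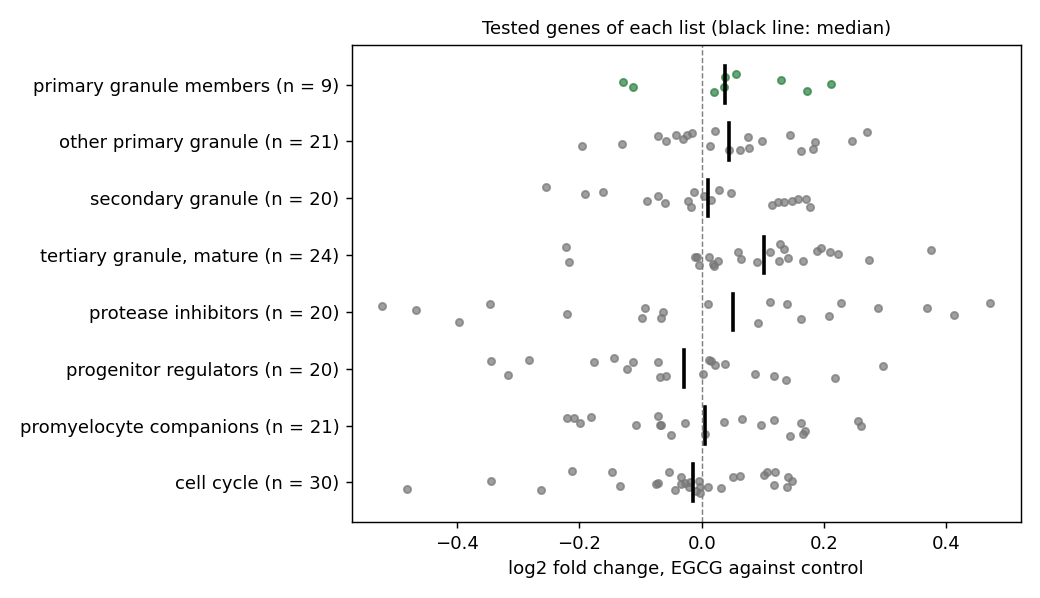
The log2 fold change (EGCG against control, horizontal axis) of each tested gene in 8 lists (rows, 1 point per gene, with the list's median as a black line). The primary granule genes lie between -0.13 and 0.21, and the median of the tertiary granule and mature neutrophil genes is 0.10, or 0.034 without control replicate 1.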

How the data were processed

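Splenic MDSCs were sequenced after 6 h in medium with or without EGCG, with 2 libraries per group, grouped by their labels. The authors counted reads per gene with featureCounts 1.6.2 and Ensembl annotation (release 91), and the submitters' processing notes also name STAR 2.6.0c and GRCm38. The deposited values are raw counts per gene, and the table's name gives them as non-stranded. The table held 0 columns of other samples and 0 lines without a gene.

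Genes were filtered with filterByExpr (minimum count of 10), scaled by TMM and compared in edgeR 4.0.16 by the quasi-likelihood test (legacy form, no block). P values were adjusted by Benjamini-Hochberg, and 0.05 was the threshold. The standard error is the log2 fold change divided by the square root of F, and 95% intervals use the t distribution of the fit. Counting errors are 100 divided by the square root of the count, in percent, and cover counting only. With 2 libraries against 2, an exact permutation test cannot go below 0.333. Alternatives were run with edgeR, DESeq2 1.42.0 and limma 3.58.1 under R 4.3.3, and the fits were tested on simulated data. Gene models came from GENCODE M21 and promoters from RefSeq. Where a symbol named 2 rows, the row with more counts was used.

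Members and gene lists were chosen with earlier results of these data known. Named genes are the members, those called and the 2 with the smallest p in each list of the granule program, and the 5 nearest in profile. Marker lists of other cell types are given by summed levels and counts, and their genes are not all named.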

Additional observations from a re-analysis of the deposited data

How the results depend on the processing

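All 9 primary granule genes missed the threshold under the 12 alternatives and with each library left out (0 called each time), and Mpo, Ms4a3 and Prss57 kept their sign throughout. Values that crossed 0 were all small. Elane became -0.0098 with the length correction and -0.0093 with the length correction and replicate block. Fcnb became -0.014 with library size only and -0.0095 with the length correction, with or without the block. With a library left out, Ctsc ranged from -0.26 to 0.024, Ctsg from -0.040 to 0.15, Prtn3 from -0.027 to 0.10 and Serpinb1a from -0.014 to 0.26; in each case the sign turned without EGCG replicate 1. With a library left out, the median of the 9 genes was between 0.013 (without EGCG replicate 1) and 0.10 (without EGCG replicate 2).

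Over all genes, 20 were called lower and 2 higher. The lower calls numbered 0 without a filter, 9 with upper-quartile scaling, 135 with library size only, 49 with the robust fit, 50 with DESeq2, 3 with the length correction and 5 with the length correction and replicate block. The higher calls numbered 0 without a filter, 1 with a CPM filter, 16 with library size only, 6 with the newer fit, 14 with the robust fit, 14 with DESeq2 and 4 with limma-voom. With a library left out, the lower calls ranged from 72 to 235 and the higher from 5 to 119. The cause was not tested. In the same runs edgeR called up to 5 macrophage markers and 3 progenitor regulators (without EGCG replicate 2), and up to 3 mature neutrophil genes and 2 promyelocyte transcripts (without control replicate 2). With library size only, the median of the 9 genes was 0.0027 and that of all genes -0.032. With the replicate block 6 genes were called higher and the median of the 9 genes was 0.037; same-numbered libraries hardly deviated together (r = 0.0336 across genes), so the numbers were not taken as pairs.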
